A study of Arabidopsis thaliana with 7 samples.

Results

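The phenylpropanoid pathway turns the amino acid phenylalanine into lignin and flavonoids, and 39 of its genes were followed among the 33602 genes of an RNA-seq count table. The 39 genes were taken by gene identifier and comprise 8 entry enzymes, 12 lignin enzymes, 4 early flavonoid enzymes, 2 flavonol enzymes, 1 glycosyltransferase that serves flavonols and anthocyanins, 4 anthocyanin genes, 1 proanthocyanidin enzyme and 7 regulators. All 39 identifiers were found in the table. Chromosomes 1, 2, 3, 4 and 5 hold 9, 5, 7, 6 and 12 of them. The study related the transcription of *Arabidopsis thaliana* genes to histone H3K4 methylation, and its 4 chromatin samples were not analysed here. RNA was taken from wild-type Col-0 seedlings, with Col-0 being the reference accession, 14 days old on MS medium, under a daily 16 h light and 8 h dark cycle at 22 °C. There were 3 RNA libraries of this single group, here called replicates 1, 2 and 3, and no other genotype or treatment. Nothing in the labels ties a replicate to its own plants or plate, and every spread given here may be technical.

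In the pathway, the entry enzymes make an activated phenolic acid, p-coumaroyl-CoA, from phenylalanine. The lignin branch modifies its ring, reduces it to monolignols and polymerises these in the walls of xylem and other lignified cells. The flavonoid branch extends it with malonyl-CoA, and its products are flavonols, which screen ultraviolet light, anthocyanins, which colour stressed or high-light-grown leaves, and proanthocyanidins, which colour the Arabidopsis seed coat. R2R3-MYB factors set the branches apart: MYB11, MYB12 and MYB111 activate flavonol synthesis, PAP1 and PAP2 work with the bHLH factor TT8 on anthocyanin genes, and TT2 works with TT8 in the seed coat.

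The libraries held 30946664, 18493022 and 20764970 counts in replicates 1, 2 and 3. Levels are CPM, the counts of a gene scaled to a common library total with edgeR's TMM method, and expressed genes are those whose mean over the libraries reached 1 CPM. CPM is not divided by transcript length, so a value set between different genes compares the reads they drew and not the number of their transcripts. Whole seedlings hold many cell types, and fewer cells of a type cannot be told apart from less RNA per cell. The leaf markers RBCS1A and CAB1 summed to 17391 ± 702 CPM (SD, n = 3 for all values given so) and the root markers PYK10 and PHT1;1 to 2428 ± 10.5 CPM. The 5 xylem and secondary wall markers (CESA4, CESA7, CESA8, XCP1 and XCP2) summed to 121.5, 113.4 and 105.3 CPM in replicates 1, 2 and 3. The endodermis markers CASP1 and ESB1 summed to 25.4 ± 1.84 CPM and the seed storage genes CRA1 and CRC to 25.3 ± 2.4 CPM. The floral genes AP3 and AG had at most 2 counts in any library.

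Genes of every measured step from phenylalanine to anthocyanin were expressed, and the proanthocyanidin step was not. Of the 39 genes, 35 reached a mean of 1 CPM, against 56.3% of all genes in the table and 69.2% of the protein-coding ones. A mean of at least 10 CPM was reached by 25 of 39, against 47.1% of protein-coding genes. A mean of at least 100 CPM was reached by 9 of 39, against 7.41%. Those 9 were PAL1, PAL2, C4H and 4CL1 of the entry enzymes, HCT, CCOAOMT1, COMT1 and CAD4 of the lignin enzymes, and CHS of the flavonoid enzymes. The 4 genes under 1 CPM were BAN, TT2, TT8 and MYB11, of which TT2 had no count in any library. Together the 39 genes drew 2458, 2397 and 2414 CPM in replicates 1, 2 and 3, which is 0.242% ± 0.00356 of the counts of a library.

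**Figure D1:**
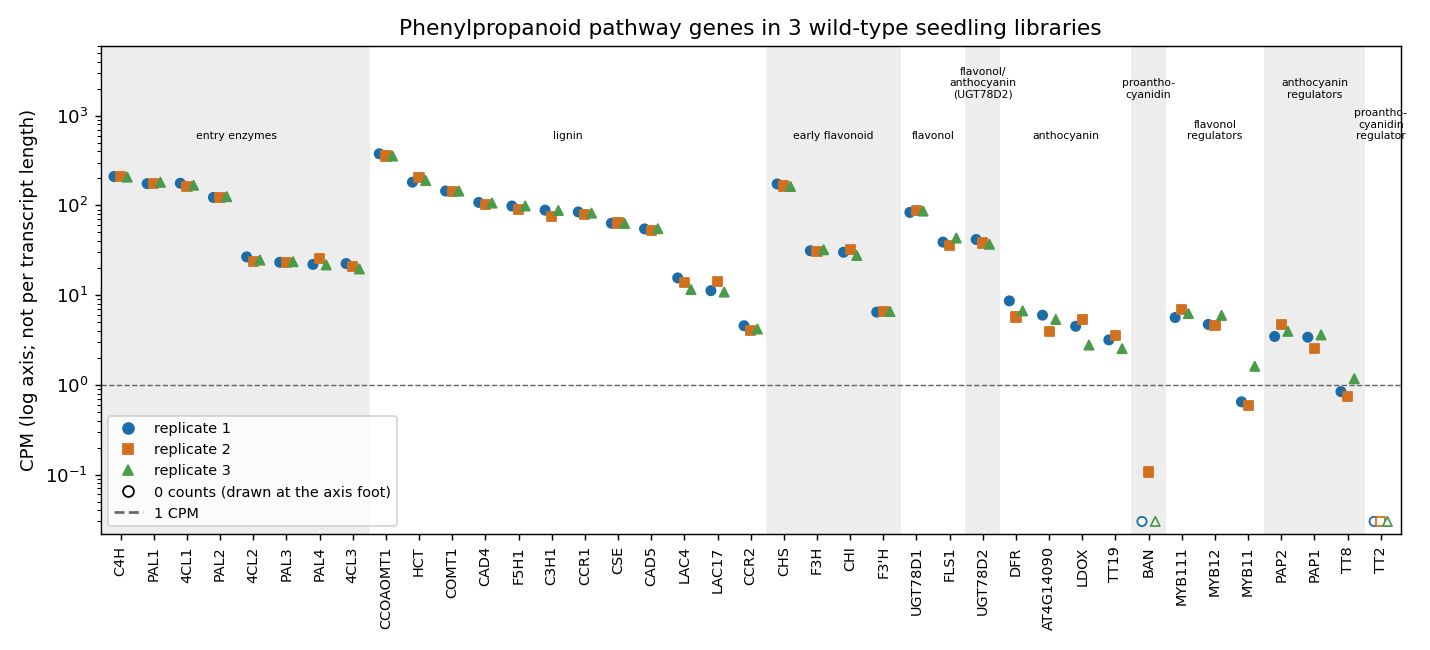
Level of each of the 39 genes in each of the 3 libraries, in CPM on a log axis, with genes grouped by branch and points for single libraries. All entry and lignin enzymes except CCR2 lie above 10 CPM, the 4 anthocyanin genes all lie under 10 CPM, and BAN and TT2 lie at or near 0.

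All 8 entry enzymes were expressed, and 4 of them exceeded 100 CPM. Phenylalanine ammonia-lyase, which removes ammonia from phenylalanine to give cinnamate, is encoded by PAL1 to PAL4. PAL1 (AT2G37040) had 174.9, 175.3 and 181.1 CPM in replicates 1, 2 and 3, and PAL2 (AT3G53260) had 122.8, 122.8 and 125.2 CPM. PAL3 (AT5G04230) had 23.2, 23.2 and 23.6 CPM. PAL4 (AT3G10340) had 22.0, 25.6 and 21.7 CPM, so that its values lay on both sides of those of PAL3. The single cinnamate 4-hydroxylase gene C4H (AT2G30490), which makes p-coumarate, had 210.2, 208.6 and 206.8 CPM, a coefficient of variation (CV) of 0.823%.

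4-Coumarate-CoA ligase adds the CoA group that both later branches need. 4CL1 (AT1G51680) had 176.6, 162.4 and 167.7 CPM. 4CL2 (AT3G21240), placed like 4CL1 with lignin synthesis in Arabidopsis, had 26.7, 23.9 and 24.6 CPM. 4CL3 (AT1G65060), placed with flavonoid synthesis, had 22.5, 20.9 and 19.6 CPM. All 3 ligase genes were highest in replicate 1, and the ranges of 4CL2 and 4CL3 did not overlap.

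All 12 lignin enzymes were expressed, with CCOAOMT1 drawing the most reads of the 39 genes and CCR2 the fewest of the branch. The branch starts with HCT (AT5G48930), which joins p-coumaroyl-CoA to shikimate and had 181.7, 203.1 and 189.3 CPM. C3H1 (AT2G40890), the cytochrome P450 CYP98A3 that hydroxylates the ring of that ester, had 88.6, 74.7 and 87.8 CPM. HCT was thus highest in replicate 2, the library in which C3H1 was lowest. CSE (AT1G52760), the esterase that releases caffeate from the shikimate ester, had 63.3, 63.6 and 62.8 CPM. CCOAOMT1 (AT4G34050), which methylates caffeoyl-CoA to feruloyl-CoA, had 376.7, 355.7 and 355.2 CPM from 11656, 6654 and 7292 counts.

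Cinnamoyl-CoA reductase makes the aldehydes of the branch. CCR1 (AT1G15950), the form known for lignin of normal development, had 84.7, 79.0 and 82.1 CPM. CCR2 (AT1G80820), known for its response to pathogens, had 4.56, 4.01 and 4.19 CPM from 141, 75 and 86 counts. The syringyl units of lignin need F5H1 (AT4G36220), also called FAH1, which had 98.5, 90.9 and 98.6 CPM. They also need the methyltransferase COMT1 (AT5G54160), which had 144.8, 144.4 and 144.5 CPM. COMT1 had the lowest CV of the expressed members, 0.165%.

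Cinnamyl alcohol dehydrogenase reduces the aldehydes to monolignols. CAD4 (AT3G19450) had 108.1, 102.6 and 106.3 CPM and CAD5 (AT4G34230) had 54.8, 52.6 and 55.0 CPM. The laccases LAC4 and LAC17 oxidise monolignols in the wall, the step at which lignin polymerises. LAC4 (AT2G38080), also called IRX12, had 15.5, 13.8 and 11.5 CPM, and LAC17 (AT5G60020) had 11.2, 14.1 and 10.8 CPM. LAC4 was highest in replicate 1 and lowest in replicate 3, the order also of the summed xylem markers (121.5, 113.4 and 105.3 CPM). Each of the 5 markers was lower in replicate 3 than in replicate 1, and 3 of 5 had their lowest value there. LAC17 was highest in replicate 2. The part of the xylem content in the LAC4 values was not tested.

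All 4 early flavonoid enzymes were expressed, and CHS drew most of their reads. Chalcone synthase, CHS (AT5G13930), condenses p-coumaroyl-CoA with malonyl-CoA and commits carbon to flavonoids. It had 173.5, 165.1 and 162.5 CPM. Chalcone isomerase, CHI (AT3G55120), had 30.1, 32.6 and 27.7 CPM. Flavanone 3-hydroxylase, F3H (AT3G51240), makes dihydroflavonols and had 31.3, 30.9 and 32.0 CPM. The lowest of the branch was F3'H (AT5G07990), the flavonoid 3'-hydroxylase needed for quercetin and cyanidin, with 6.46, 6.57 and 6.58 CPM from 200, 123 and 135 counts. F3'H varied the least of the 10 members between 1 and 10 CPM, with a CV of 0.976%.

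The flavonol genes were all expressed above 10 CPM. Flavonol synthase, FLS1 (AT5G08640), turns dihydroflavonols into flavonols and had 39.0, 35.8 and 43.3 CPM from 1207, 669 and 889 counts. FLS1 was highest in replicate 3 and lowest in replicate 2. UGT78D1 (AT1G30530) adds rhamnose to flavonols and had 83.7, 87.8 and 86.5 CPM. UGT78D2 (AT5G17050) adds glucose to flavonols and to anthocyanidins, so it was counted with neither branch. It had 41.7, 38.1 and 36.9 CPM and was highest in replicate 1.

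All 4 anthocyanin genes were expressed, and all 4 stayed under 10 CPM in every library. Dihydroflavonol reductase, DFR (AT5G42800), takes the substrate of flavonol synthase towards anthocyanidins, and had 8.63, 5.72 and 6.67 CPM from 267, 107 and 137 counts. AT4G14090, a gene of this branch that has no name in the gene table used here, had 5.98, 3.96 and 5.36 CPM from 185, 74 and 110 counts. DFR and AT4G14090 were both highest in replicate 1 and lowest in replicate 2. Leucoanthocyanidin dioxygenase, LDOX (AT4G22880), makes anthocyanidins and had 4.49, 5.35 and 2.78 CPM from 139, 100 and 57 counts. TT19 (AT5G17220), a glutathione S-transferase that carries anthocyanins towards the vacuole, had 3.17, 3.53 and 2.53 CPM from 98, 66 and 52 counts. LDOX and TT19 were both highest in replicate 2 and lowest in replicate 3, so the 4 genes of the branch did not share an order over the libraries.

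The proanthocyanidin genes had at most 2 counts in any library. BAN (AT1G61720), the anthocyanidin reductase that opens this branch, had 0, 2 and 0 counts. TT2 (AT5G35550), its MYB activator in the seed coat, had no count in any library. A count of 0 allows up to 3 counts, or 0.0970, 0.160 and 0.146 CPM in replicates 1, 2 and 3, for counting error only. Both genes are thus at or under the floor at this depth.

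The regulators of the flavonol and anthocyanin branches were read at a few CPM. MYB12 (AT2G47460) had 4.72, 4.54 and 5.94 CPM from 146, 85 and 122 counts. MYB111 (AT5G49330) had 5.62, 6.95 and 6.23 CPM from 174, 130 and 128 counts. MYB12 was highest in replicate 3 and MYB111 in replicate 2, but neither varied beyond counting error in the test given below. MYB11 (AT3G62610) had 0.646, 0.588 and 1.61 CPM from 20, 11 and 33 counts, and its mean of 0.947 ± 0.572 CPM fell just under the limit for an expressed gene. The exact 95% Poisson interval of MYB11 was 1.11 to 2.26 CPM in replicate 3, above the intervals of 0.395 to 0.998 CPM in replicate 1 and 0.294 to 1.05 CPM in replicate 2. Low counts of the table were mostly even, although the 11 and 33 counts of MYB11 were odd. If both mates of a pair had been counted, the intervals on halved counts would overlap. They would be 0.891 to 2.53, 0.310 to 1.19 and 0.235 to 1.40 CPM in replicates 3, 1 and 2. Without replicate 3 the mean of MYB11 was 0.621 CPM.

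PAP1 and PAP2, the anthocyanin MYB factors, ranged from 2.57 to 4.70 CPM. PAP1 (AT1G56650) had 3.39, 2.57 and 3.60 CPM from 105, 48 and 74 counts. PAP2 (AT1G66390) had 3.46, 4.70 and 3.95 CPM from 107, 88 and 81 counts. PAP1 was lowest in replicate 2, where PAP2 was highest, and both were expressed by the 1 CPM limit. Their bHLH partner TT8 (AT4G09820) had 0.840, 0.748 and 1.17 CPM from 26, 14 and 24 counts, a mean of 0.919 ± 0.221 CPM. Replicates 1 and 2 of TT8 lay under 1 CPM and replicate 3 above it.

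Within 8 gene families, the division of reads among isoforms was compared. Reads of close copies may be divided differently by the authors' counting, and the labels do not state how reads matching several genes were treated. PAL1 held 51.0% ± 0.489 of the reads of the ammonia-lyases, PAL2 35.6% ± 0.203, PAL3 6.72% ± 0.0469 and PAL4 6.66% ± 0.636. PAL1 drew 1.43-fold the reads of PAL2, in the same direction in 3 of 3 libraries. PAL3 and PAL4 differed by 1.01-fold, with overlapping ranges, and their order turned without replicate 1 (23.4 against 23.7 CPM) or without replicate 3 (23.4 against 23.9 CPM). Among the ligases 4CL1 held 78.6% ± 0.495, 4CL2 11.7% ± 0.150 and 4CL3 9.76% ± 0.455. The 1.19-fold difference between 4CL2 and 4CL3 was in the same direction in 3 of 3 libraries.

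In the lignin families, CCR1 held 95.1% ± 0.154 of the reductase reads and CAD4 66.1% ± 0.234 of the CAD4 and CAD5 reads. LAC4 held 58.1%, 49.5% and 51.6% of the reads of LAC4 and LAC17 in replicates 1, 2 and 3. LAC4 was above LAC17 in 2 of 3 libraries and below it in replicate 2, with 259 against 264 counts. Their 95% Poisson intervals overlapped in replicate 2, at 12.2 to 15.6 and 12.5 to 15.9 CPM, and also in replicate 3. In replicate 1 they did not, at 14.2 to 17.0 and 10.1 to 12.5 CPM. A change of order was thus not resolved from counting error. UGT78D1 held 68.9% ± 1.85 of the reads of UGT78D1 and UGT78D2. Among the flavonol regulators MYB111 held 51.3% ± 6.15, MYB12 41.2% ± 3.13 and MYB11 7.47% ± 3.66. MYB111 was above MYB12 in 3 of 3 libraries, but their ranges over libraries overlapped. PAP1 held 49.5%, 35.3% and 47.7% of the reads of PAP1 and PAP2. PAP1 was below PAP2 in 3 of 3 libraries, by little in replicates 1 and 3, and their ranges overlapped. An exact sign-flip test over 3 libraries (two-sided) cannot give a p below 0.25, so this test can call no isoform difference at a threshold of 0.05.

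The lignin, flavonol and anthocyanin branches differed widely in the reads they drew. The 12 lignin enzymes summed to 1233, 1198 and 1208 CPM in replicates 1, 2 and 3, which is 50.1% ± 0.0682 of the reads of the 39 genes. The 8 entry enzymes summed to 779.0, 762.7 and 770.2 CPM, or 31.8% ± 0.110. The 4 early flavonoid enzymes summed to 241.3, 235.1 and 228.8 CPM, or 9.70% ± 0.192. FLS1 and UGT78D1 summed to 122.7, 123.5 and 129.8 CPM, or 5.17% ± 0.194. The 4 anthocyanin genes summed to 22.3, 18.5 and 17.3 CPM, or 0.799% ± 0.0963. UGT78D2 alone held 1.60% ± 0.0854, more than the 4 anthocyanin genes together. The branch sums kept their order in 3 of 3 libraries, with no overlap between any of these 5 branches.

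Lignin enzymes drew 10.1, 9.70 and 9.31 times the reads of the flavonol enzymes in replicates 1, 2 and 3, a log2 ratio of 3.28 ± 0.0551. They drew 55.3, 64.6 and 69.7 times the reads of the anthocyanin genes, a log2 ratio of 5.98 ± 0.169. The flavonol enzymes in turn drew 5.51, 6.66 and 7.49 times the reads of the anthocyanin genes, a log2 ratio of 2.70 ± 0.223. By their sum, the early flavonoid enzymes drew 10.8, 12.7 and 13.2 times the reads of the anthocyanin genes, a log2 ratio of 3.61 ± 0.150. The entry enzymes and the lignin enzymes were close, with a log2 ratio of entry over lignin of -0.65 ± 0.0065. The exact sign-flip test gave p = 0.25 (two-sided) for each of these 5 ratios and for lignin over early flavonoid (log2 ratio 2.37 ± 0.0285), the smallest p that 3 libraries allow.

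The branches differ in their number of genes, which bears on the sums. By the median per gene, lignin exceeded flavonol by only 1.41, 1.24 and 1.31 times, since the 12 lignin genes had a median of 82.8 CPM and the 2 flavonol genes one of 62.7 CPM. The median per gene of the anthocyanin branch was 4.65 CPM, and lignin exceeded it by 16.5, 16.5 and 20.9 times. By that measure flavonol exceeded anthocyanin by 11.7, 13.3 and 16.0 times. The order of early flavonoid and flavonol was the reverse of that of their sums. The early flavonoid median was 30.7, 31.7 and 29.9 CPM in replicates 1, 2 and 3, under the flavonol median of 61.3, 61.8 and 64.9 CPM. Counting UGT78D2 with the anthocyanin genes lowered the log2 ratio of flavonol over anthocyanin to 1.11, and counting it with the flavonol genes raised it to 3.09. Gene lengths were not used here, and their part in the ratios was not tested.

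**Figure D2:**
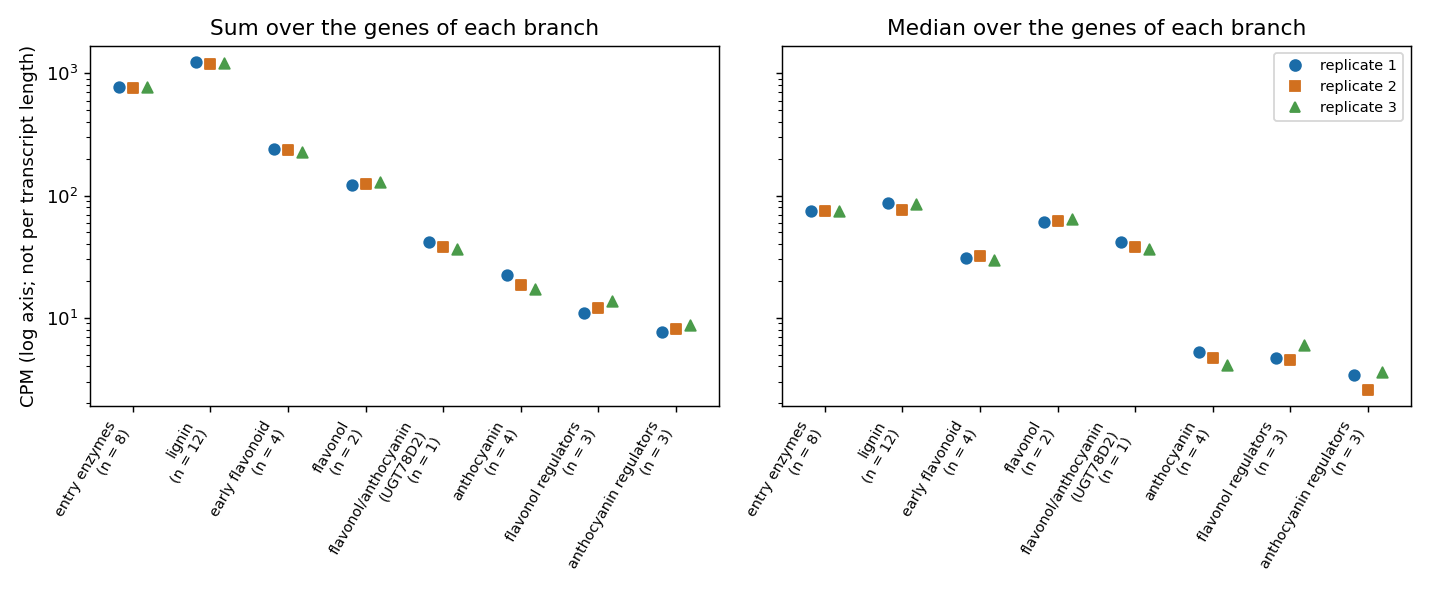
Summed CPM (left) and median CPM per gene (right) of each branch in each library, on a log axis, with points for the 3 libraries. In the left panel the lignin points lie around a mean of 1213 CPM, entry 770.6 CPM, early flavonoid 235.1 CPM, flavonol 125.3 CPM and anthocyanin 19.4 CPM.

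None of the 35 expressed members passed the test for variation between libraries beyond genes of their own level. The test was edgeR's goodness-of-fit on an intercept-only model with the trended dispersion and Benjamini-Hochberg adjustment over 18915 genes, and it called 0 of 35 members against 0.148% of all genes. Of the members, 1 had an unadjusted p under 0.05, LDOX, as did 4.61% of all genes. Against counting error alone (dispersion 0), 13 of 35 members varied, against 32.8% of all genes. These were 6 lignin enzymes (HCT, C3H1, CCOAOMT1, F5H1, LAC4 and LAC17), 3 anthocyanin genes (DFR, LDOX and AT4G14090), and 4CL1, CHS, FLS1 and UGT78D2. That count takes each count as a separate fragment. On halved counts, an alternative added after seeing the data, 2 of 35 members varied beyond counting error, HCT and C3H1, against 6.40% of all genes. The lignin sum, of 12 genes at 1213 CPM, had a CV of 1.45% and the anthocyanin sum, of 4 genes at 19.4 CPM, one of 13.3%. No sums of like level were compared, so these CVs do not rank the branches.

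The CV was also set against genes of like level. Among genes of 100 CPM and over, the 9 members had a median CV of 2.62%, against 3.61% for all genes of that class. Among those of 10 to under 100 CPM, 16 members had a median of 6.15%, against 6.07%. Among those of 1 to under 10 CPM, which hold the 4 anthocyanin genes, 10 members had a median of 16.0%, against 14.7%, and LDOX had the highest CV of the expressed members, 31.1%. By library, 15, 10 and 10 of the 35 members were highest in replicates 1, 2 and 3, against 33.3%, 33.7% and 33.0% of all expressed genes. Of the 12 lignin enzymes, 7 were highest in replicate 1, and of the 4 anthocyanin genes 2 were highest in replicate 1 and 2 in replicate 2. The median log2 difference of the members from the other libraries was 0.03, -0.02 and -0.01 in replicates 1, 2 and 3, and over all expressed genes it was 0.00, 0.00 and -0.00.

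**Figure D3:**
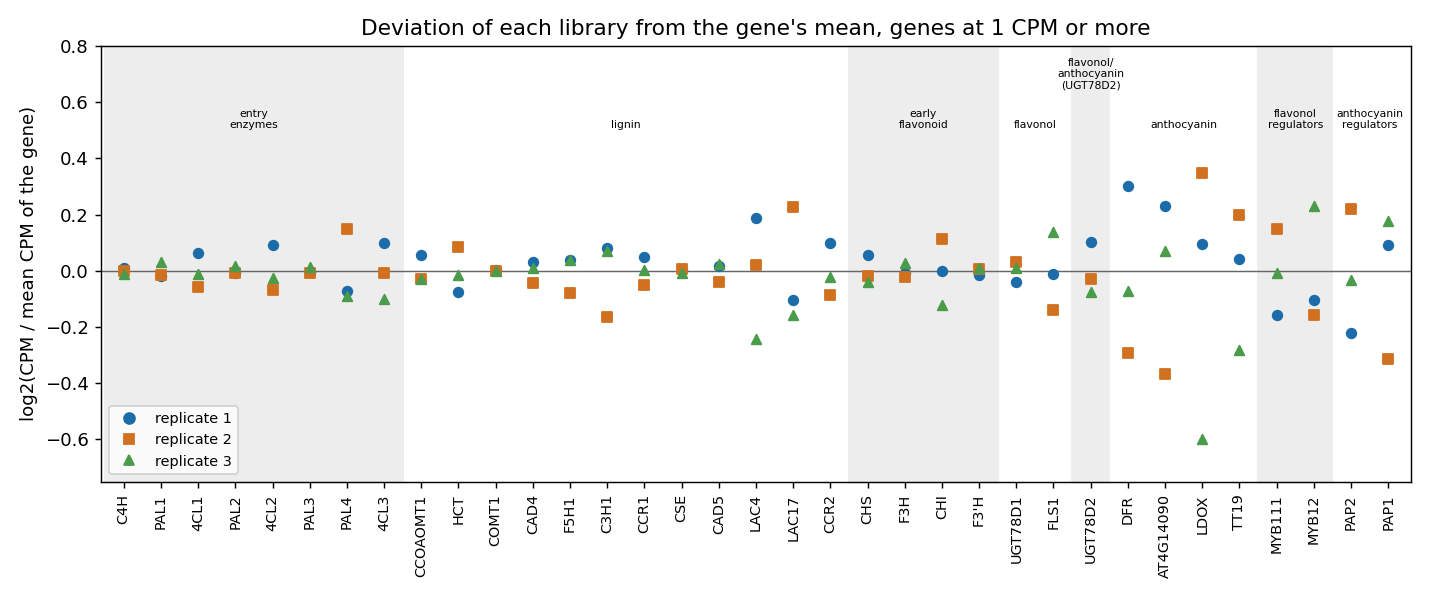
Log2 level of each expressed member in each library relative to its mean over the libraries, grouped by branch. LDOX reaches -0.60 in replicate 3, LAC4 and LAC17 spread the most of the lignin branch, and COMT1 and CSE stay closest to 0.

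**Figure D4:**
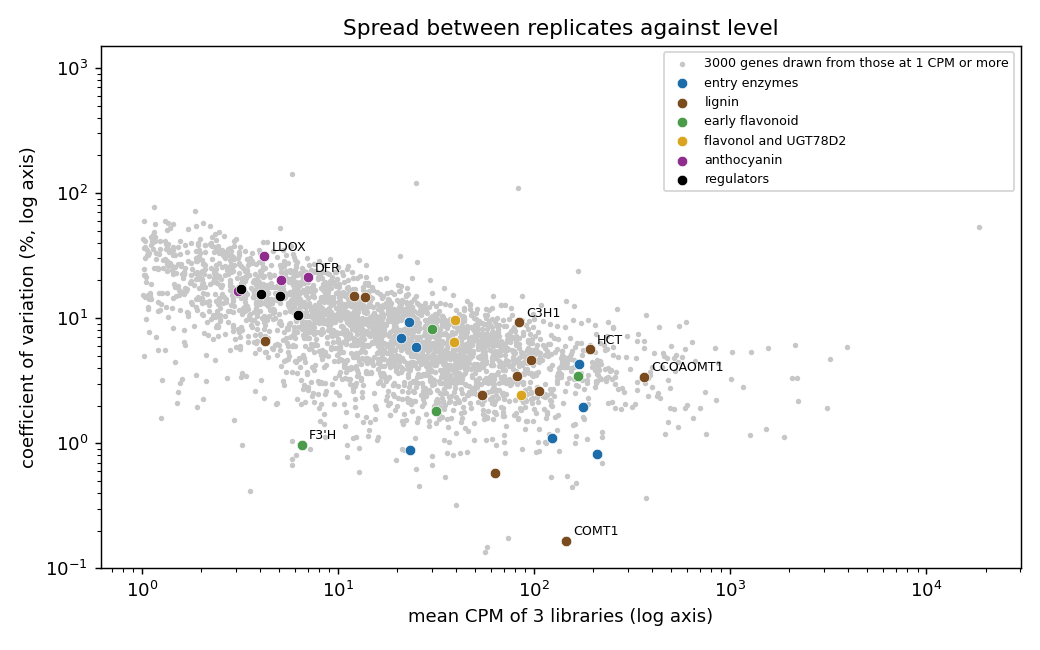
Coefficient of variation over the 3 libraries, in percent, against mean CPM, both on log axes, for the expressed members (coloured) and for 3000 genes drawn at random from all expressed genes (grey). The members lie within the grey cloud, from COMT1 at 0.165% to LDOX at 31.1%.

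Beyond the 39 genes, 84 further genes of the pathway in 10 lists were read. Of these, 69 were expressed, against 69.2% of protein-coding genes, and 3 had no count in any library. The same 69.2% stands beside the count of expressed genes in each list below. Phenylalanine itself is supplied by arogenate dehydratases, and 6 of 6 of their genes were expressed. ADT3 and ADT5 were the highest at 50.1 ± 1.84 and 44.8 ± 1.05 CPM, and ADT6 and ADT1 the lowest at 21.7 ± 0.391 and 28.5 ± 1.45 CPM. In the list of further entry and monolignol enzymes, 6 of 6 were expressed. The P450 reductases ATR2 and ATR1, which supply electrons to C4H, C3H1 and F5H1, were the highest at 166.5 ± 6.11 and 149.8 ± 4.50 CPM. The lowest were CYP84A4, a relative of F5H1, at 1.48 ± 0.436 CPM, and CCOAOMT7, a relative of CCOAOMT1, at 7.23 ± 0.841 CPM. 4CL5 lies next to 4CL2 on chromosome 3 and had 10.4 ± 0.407 CPM against 25.1 ± 1.46 CPM for 4CL2.

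Of the lignin polymerisation genes, 8 of 8 were expressed, with a median of 11.1 CPM. ABCG29, a transporter of p-coumaryl alcohol, had 37.3 ± 1.95 CPM and the peroxidase PRX71 had 27.3 ± 0.718 CPM. The peroxidase PRX25 had 4.28 ± 1.39 CPM. The peroxidase PRX2 (AT1G05250) had 0, 2 and 78 counts in replicates 1, 2 and 3, so that it passed the 1 CPM limit through replicate 3 alone. It was the 1 gene of the 84 past the limit of the test for variation between libraries, but since replicate 3 also admitted it to that test, no p is given. Its neighbour AT1G05240, a near-identical copy looked at after these values were seen, had 2, 0 and 6 counts, and the division of reads between them is uncertain.

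Of the regulators of lignin and secondary walls, 6 of 13 were expressed, against 69.2% of protein-coding genes, with none at 10 CPM and a median of 0.992 CPM. That count depends on the limit and was 9 at 0.5 CPM and 3 at 2 CPM. MYB20 and MYB43, which activate lignin genes, were the highest at 8.19 ± 0.360 and 6.54 ± 1.30 CPM. The secondary wall NAC factor SND1 had no count and its relative NST1 had 2, 0 and 0 counts. The xylem master regulators VND6 and VND7 had 1.41 ± 0.501 and 1.03 ± 0.426 CPM, and the secondary wall switch MYB46 had 1.22 ± 0.516 CPM. In replicates 1, 2 and 3, VND7 had 1.49, 0.641 and 0.974 CPM and MYB46 had 1.81, 0.962 and 0.877 CPM. Both thus passed the 1 CPM limit through replicate 1 alone. The xylem markers CESA4, CESA7, CESA8, XCP1 and XCP2 summed to 113.4 ± 8.11 CPM in the same libraries.

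Of the repressors of the pathway, 10 of 10 were expressed, against 69.2% of protein-coding genes, and 3 of 10 exceeded 100 CPM, against 7.41%. KFB50, an F-box protein that directs the breakdown of phenylalanine ammonia-lyases, was the highest at 270.7 ± 18.3 CPM, drawing more reads than PAL1 at 177 ± 3.45 CPM. KFB20, of the same kind, had 202.6 ± 15.8 CPM. AT1G23390, which the gene table leaves unnamed, had 228.3 ± 6.63 CPM. MYB4, a repressor of C4H, had 25.7 ± 1.58 CPM. The lowest of the list were its relatives MYB7 and MYB32, at 9.81 ± 1.02 and 6.42 ± 0.664 CPM.

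Sinapate esters, the ultraviolet screen of Brassicaceae leaves, and monolignol glucosides branch off the lignin route, and 7 of 8 of their genes were expressed. SNG1, which makes sinapoylmalate in leaves, had 289.7 ± 14.1 CPM, and REF1, the aldehyde dehydrogenase that makes sinapate and ferulate, had 188.8 ± 6.57 CPM. SNG2, which makes sinapoylcholine in seeds, had 2, 0 and 0 counts. The monolignol glucosyltransferases UGT72E1 and UGT72E2 had 46.5 ± 5.43 and 42.0 ± 2.60 CPM, and UGT72E3 had 1.78 ± 0.637 CPM.

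Of the further flavonol genes, 8 of 9 were expressed. RHM1, which makes the rhamnose donor that UGT78D1 uses, was the highest at 171.3 ± 3.36 CPM, followed by AT1G06000 at 55.6 ± 5.02 CPM. The flavonol synthase relatives FLS2, FLS3, FLS4 and FLS5 lie side by side on chromosome 5 and had 2.72 ± 0.642, 8.59 ± 1.5, 2.65 ± 0.185 and 46.5 ± 3.80 CPM, beside 39.4 ± 3.78 CPM for FLS1. UGT78D3, the arabinosyltransferase with 1 gene between it and UGT78D2, had 4, 0 and 2 counts where UGT78D2 had 1290, 712 and 757. CHIL, which raises the efficiency of chalcone synthase, had 24.7 ± 0.943 CPM, beside 30.1 ± 2.44 CPM for CHI.

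Of 6 genes that decorate anthocyanins, 6 were expressed, against 69.2% of protein-coding genes, and 2 reached 10 CPM, against 47.1%. These were BGLU10 at 98.9 ± 4.14 CPM and SCPL10 at 13.4 ± 0.505 CPM. The lowest, AT1G03495 and AT1G03940, had 40, 6 and 42 and 52, 16 and 54 counts. Both were lowest in replicate 2, as were 6270 of the 18915 expressed genes. Of 6 further proanthocyanidin and seed coat genes, 2 were expressed, TTG2 at 4.08 ± 0.580 CPM and AHA10 at 2.18 ± 0.120 CPM. TT1 had no count, and the transporter TT12, the MADS factor TT16 and the laccase TT10 had at most 10 counts in a library. The seed storage genes CRA1 and CRC summed to 25.3 CPM in the same libraries.

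Of 12 further anthocyanin regulators, 10 were expressed. The highest were the nitrogen-responsive repressors LBD37 at 114.3 ± 5.76 CPM and LBD39 at 48.7 ± 3.17 CPM. The repressor MYBL2 had 46.3 ± 1.88 CPM and TTG1, the WD40 partner of PAP1, PAP2 and TT8, had 39.6 ± 2.16 CPM. The bHLH factors that can replace TT8 were lower than TTG1, with 1.67 ± 0.663 CPM for GL3 and 5.18 ± 1.86 CPM for EGL3. Both means were above that of TT8, 0.919 ± 0.221 CPM. EGL3 was read at 3.30, 5.24 and 7.01 CPM in replicates 1, 2 and 3. MYB113 and MYB114 lie in a row with PAP2 on chromosome 1. MYB113 had 0, 0 and 8 counts and MYB114 none, while PAP2 had 107, 88 and 81 counts.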

How the data were processed

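The authors deposited raw counts per gene for the 3 RNA libraries, each column of the table belonging to 1 of them. The submitters' processing notes name the build TAIR10 and, without giving their roles, featureCounts, HISAT2, cutadapt, SAMtools 1.13, deepTools 3.5.1 and Bowtie2 2.4.5. Per the labels, the library kit keeps strand. The strand setting, the annotation release and the handling of read pairs and multi-mapping reads were not given in the sources used here. Hence close copies, overlapping genes and antisense genes are uncertain. Of counts between 1 and 19, 85.4% were even, against 59.6% of counts from 20 to 199 and 50.4% of those of 200 and over. Intervals and floors cover counting error only.

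From these counts CPM were computed with edgeR 4.0.16 (TMM factors 0.989 to 1.01) in R 4.3.3, and DESeq2 1.42.0 gave the size factors of an alternative. Levels per kb of coding sequence had been planned for comparing genes, branches and isoforms. No transcript or protein lengths were used here, so CPM without length took their place, and no sequence is printed. Symbols were looked up in RefSeq's gene list for TAIR10.1, which holds 32835 of the 33602 identifiers, and it was also used to see which genes are neighbours. Variation between libraries was tested across all genes of at least 1 CPM by the goodness of fit of edgeR's intercept-only model, at an adjusted p of 0.05. The test had been checked on counts drawn with known changes, under the dispersion that the test assumes. That check set a required recovery only for its largest change. The power for changes as small as those of the members is not given here, so a member not called may still have varied.

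The members and the lists were chosen with earlier results of these data known. Every member was named. Of each further list, the highest 2 and lowest 2 genes were named by rule, and other genes were named for their role or position after their values were seen. Alternatives were other scalings, other limits for an expressed gene, the median per gene, the placing of UGT78D2, a dispersion of 0, halved counts, testing every gene with a count, and leaving out each replicate.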

Additional observations from a re-analysis of the deposited data

How the results depend on the processing

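No paired analysis was possible because the RNA libraries form a single group, so replicate numbers could not pair samples across groups. The planned levels per kb were not run because no lengths were used here. No branch ratio tried changed direction, but scaling or leaving out a library could not have turned one. Scaling leaves ratios within a library unchanged, and each ratio had 1 direction in 3 of 3 libraries. Early flavonoid against flavonol was not among the ratios tried, and its order differed between the sum and the median per gene. Of the isoform pairs, PAL3 and PAL4 alone turned when a library was left out. Besides them only LAC4 and LAC17 could have turned, since all other pairs kept 1 order in 3 of 3 libraries. Taking the median per gene in place of the sum gave log2 ratios of 0.40 for lignin over flavonol, 4.16 for lignin over anthocyanin, 3.76 for flavonol over anthocyanin, 2.73 for early flavonoid over anthocyanin, -0.15 for entry over lignin and 1.43 for lignin over early flavonoid. The placing of UGT78D2 was tried after seeing the data. With flavonol, lignin over flavonol was 2.88 and flavonol over anthocyanin 3.09. With anthocyanin, lignin over anthocyanin was 4.38, flavonol over anthocyanin 1.11 and early flavonoid over anthocyanin 2.02.

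The number of genes varying beyond their level was 28 with all libraries and 6 to 29 when 1 library was left out, with 6 without replicate 3. The number was 26 on halved counts and 35 with every gene that had a count, and no member passed in either. PRX2 was not tested without replicate 3. At dispersion 0, 13 members and 6197 genes varied, and on halved counts, added after seeing the data, 2 members and 1211 genes. The number of expressed members was 35 to 37 under the limits tried, at 0.5 to 2 CPM, and without any 1 library, and MYB11 passed 1 CPM without replicate 1 or 2. The number of expressed genes among the 84 others was 69, against 72 at 0.5 CPM, 59 at 2 CPM and 67 to 70 with a library left out. Their single levels were not recomputed. Other scalings moved a member's level by at most 1.17%. The 40 alternative values of isoform shares moved by less than 1 SD, but this outcome was fixed in advance. Shares within a library do not change with scaling, and leaving out 1 of 3 libraries cannot move a mean share by 1 SD. Of the member levels, 190 of 195 moved by at most 1 SD, the exceptions being C4H, CSE and COMT1 with a library left out. With a library left out, a level could move further only through the recomputed scaling. Depth limits BAN, TT2, MYB11 and TT8, which had at most 33 counts in a library.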
